A study of Mus musculus with 2 samples.

Results

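The mir-34/mir-449 family of the mouse comprises 6 microRNA genes at 3 loci, Mir34a, Mir34b with Mir34c, and Mir449a with Mir449b and Mir449c, and all 6 were found by symbol among the 2202 annotated miRNA genes counted in hippocampal tissue. The tissue, labelled as a layer of the hippocampus, came from male B6CASTF1/J mice, an F1 hybrid strain, aged 18 to 20 months. There was 1 group of 2 microRNA sequencing libraries, numbered as biological replicates 1 and 2 in the labels, so no age, sex, genotype or treatment was set against another. Both replicates carry the same donor entry, and the labels do not state that separate animals were used. Spread and p-values therefore measure differences between these libraries, which may be technical.

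A microRNA gene is transcribed into a hairpin, from which the arms are cut as short mature RNAs that pair with messenger RNAs through the seed and lower their translation or stability. The mir-34 genes are known as targets of the tumour suppressor p53, and Mir34a has often been described as rising with age in mouse tissues. Mir34b, Mir34c and the Mir449 genes are known from multiciliated epithelia such as the airway, where they act in the formation of motile cilia. In the brain, such cells line the ventricles as ependyma. Mir34c has also been studied as a memory-related microRNA of the mouse hippocampus. The tissue was not separated into cell types and had 1 age, so neither the ciliated source nor an effect of ageing was measured here. In such bulk tissue, fewer cells of a type and less RNA per cell cannot be told apart.

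The mature sequences are shown because the seed, in capitals (bases 2 to 8), is what joins the family, while the bases after it are what lets a read be placed on 1 gene. They are given 5′ to 3′ from RefSeq (GRCm38.p6), which held 9 mature sequences of the family, 4 from 5p arms and 5 from 3p arms. No sequence is printed for miR-34c-5p or for Mir449b, and neither was in the search for shared seeds.
miR-34a-5p: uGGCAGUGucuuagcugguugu
miR-34b-5p: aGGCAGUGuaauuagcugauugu
miR-449a-5p: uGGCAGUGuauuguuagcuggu
miR-449c-5p: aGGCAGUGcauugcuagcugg
miR-34b-3p: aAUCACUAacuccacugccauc
miR-34c-3p: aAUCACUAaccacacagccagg
miR-34a-3p: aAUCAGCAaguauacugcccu
miR-449a-3p: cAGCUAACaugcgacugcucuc
miR-449c-3p: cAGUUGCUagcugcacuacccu

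The 4 listed 5p arms carry the seed GGCAGUG, and no other mature sequence among the 1679 names in that table has it. The 3p arms of Mir34b and Mir34c share the seed AUCACUA, again with none outside the family, while the other 3 listed 3p arms each have a seed found in no other entry. Outside the seed the 4 listed 5p arms diverged. Of these, miR-34a-5p and miR-34b-5p are 4 single-base edits apart (substitutions, insertions or deletions), as are miR-449a-5p and miR-449c-5p. A distance of 6 edits lies between miR-34a-5p and miR-449a-5p. Distances to miR-34c-5p and to the arms of Mir449b were not measured, so closer pairs may exist.

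The hairpins of 4 genes show how the arms, in capitals, sit to either side of the loop. They are printed because the deposited counts are per hairpin gene, so reads of the 5p and 3p arms cannot be separated in the values below.
Mir34a: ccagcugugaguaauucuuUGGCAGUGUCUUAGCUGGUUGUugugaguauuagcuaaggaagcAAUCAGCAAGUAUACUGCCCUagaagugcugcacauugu
Mir34b: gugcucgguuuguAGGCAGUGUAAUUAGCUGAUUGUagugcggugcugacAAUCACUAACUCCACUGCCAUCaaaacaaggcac
Mir449a: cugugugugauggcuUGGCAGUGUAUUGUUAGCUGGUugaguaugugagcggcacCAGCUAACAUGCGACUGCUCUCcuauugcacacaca
Mir449c: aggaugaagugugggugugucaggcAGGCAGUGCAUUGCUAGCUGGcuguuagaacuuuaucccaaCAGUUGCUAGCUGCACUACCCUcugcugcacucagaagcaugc

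Reads that map to several places enter no gene in these tables, which makes sequence sharing a limit on any family. For the mir-34/mir-449 hairpins only short exact stretches were shared with other annotated genes. The longest exact stretch shared with any of the other 2201 annotated hairpins, on either strand, was 14 nt for Mir449a (with Mir679), 12 nt for Mir34a, Mir449b and Mir449c, and 11 nt for Mir34b and Mir34c. Between family members it was at most 11 nt. None of the 9 listed mature sequences occurred, on either strand, in a GENCODE M21 transcript of another gene. The genome itself was not searched. A single mismatch ends an exact stretch or match, so closely similar arms were not looked for. No sequence of miR-34c-5p or Mir449b was among the 9 mature sequences. How reads with mismatches were placed among the members was not tested.

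Mir34a (ENSMUSG00000065493.1) lies at chr4:150068454-150068555 on the plus strand of mm10, and its last 17 nt overlap the exon of Gm37795, a transcript of the same strand that GENCODE classes as awaiting experimental evidence. Mir34b (ENSMUSG00000065492.1, chr9:51103562-51103645) and Mir34c (ENSMUSG00000065587.1, chr9:51103034-51103110) lie on the minus strand, 451 nt apart, with Mir34b first in the direction of transcription. Both fall within an intron of Btg4, a protein-coding gene of the opposite strand. Mir449c (ENSMUSG00000076146.1, chr13:113035983-113036091), Mir449b (ENSMUSG00000078027.1, chr13:113037419-113037498) and Mir449a (ENSMUSG00000065575.1, chr13:113037534-113037624) follow each other on the plus strand within 1642 nt of an intron of Cdc20b, a protein-coding gene of the same strand. The gap is 1327 nt between Mir449c and Mir449b and only 35 nt between Mir449b and Mir449a. No miRNA gene outside the family lay within 5 kb of any member.

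**Figure D1:**
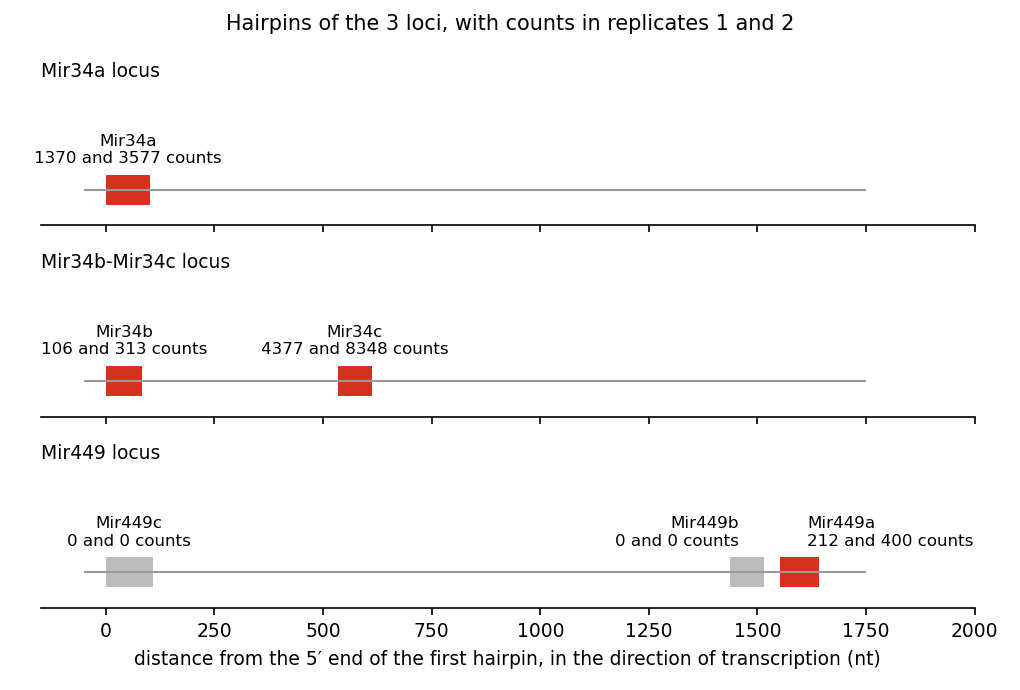
Hairpins of the Mir34a locus, the Mir34b-Mir34c locus and the Mir449 locus, drawn to scale as boxes; the x axis is the distance in nt from the 5′ end of the first hairpin in the direction of transcription. Red boxes are genes with at least 10 counts in both libraries and grey boxes are Mir449b and Mir449c, which had 0 counts in both; the labels give the sense counts of replicates 1 and 2.

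The libraries held 3758318 sense counts over miRNA genes in replicate 1 and 5598792 in replicate 2, and levels are given as counts per 1000000 of these (CPM). Markers fixed for neurons were well counted (10 of 14 detected, summing to 51391 and 52874 CPM in replicates 1 and 2), although the Mir124a copies, defining for neurons, had at most 5 counts. The muscle genes Mir1a and Mir133a were at 0, while 1 of the 5 muscle markers was detected, Mir206, at 52.2 and 79.7 CPM. Mir124a, Mir1a and Mir133a are each encoded by several copies, and reads shared by copies enter no gene.

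The family held a small share of the counted reads in both hippocampal libraries, and most of it came from 1 gene. Its 6 genes summed to 6065 counts in replicate 1 and 12638 in replicate 2, which is 0.161% (Wilson 95% interval 0.157 to 0.165%) and 0.226% (0.222 to 0.230%) of the counted reads. In CPM the sums were 1614 and 2257, or 1936 ± 455 (mean ± SD; n = 2 for this and all later means). Of the 6 genes, 4 were detected, meaning at least 10 counts in both libraries, against 17.4% of all miRNA genes. The remaining 2, Mir449b and Mir449c, had no count, as did 65.8% of all miRNA genes. Without molecular identifiers, reads may be copies of 1 molecule, so the intervals and limits given here cover counting error alone.

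Mir34c, the downstream hairpin of the chromosome 9 pair, was the most abundant member. It had 4377 counts in replicate 1 and 8348 in replicate 2, which is 1165 CPM (Wilson interval 1131 to 1199.6) and 1491 CPM (1459 to 1523). Its mean of 1328 ± 231 CPM put it at rank 79 of the 2202 genes, above 79.4% of the 384 detected genes. This and the ranks below leave out reads that map to several places. Genes with copies, such as Mir124a, may therefore rank lower than their mature RNAs would.

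Mir34a, the p53-responsive single gene of chromosome 4, came next. It had 1370 counts in replicate 1 and 3577 in replicate 2, or 365 CPM (346 to 384) and 639 CPM (618 to 660.2). The mean of 502 ± 194 CPM was rank 120, above 68.8% of detected genes. Its higher value, in replicate 2, stayed below the lower Mir34c value, in replicate 1.

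Mir449a, the last hairpin of the Cdc20b intron cluster and the only one of that cluster with reads, had 212 counts in replicate 1 and 400 in replicate 2. In CPM this is 56.4 (49.3 to 64.5) and 71.4 (64.8 to 78.8), with a mean of 63.9 ± 10.6 CPM at rank 212. Mir34b, the first hairpin of the chromosome 9 pair, had 106 and 313 counts, or 28.2 CPM (23.3 to 34.1) in replicate 1 and 55.9 CPM (50.05 to 62.5) in replicate 2, with a mean of 42.1 ± 19.6 CPM at rank 237. Both lay below the median detected gene, which had 102 CPM.

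For Mir449b and Mir449c, 0 counts allow up to 3 counts per library, which is 0.798 CPM in replicate 1 and 0.536 CPM in replicate 2. The Mir449 locus was thus read from Mir449a alone, although Mir449b ends 35 nt before Mir449a begins. The Mir449a count was 70.7 times the bound of 3 counts for Mir449b, and likewise for Mir449c, in replicate 1. In replicate 2 it was 133 times that bound. The counting error of Mir449a itself does not enter these folds.

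**Figure D2:**
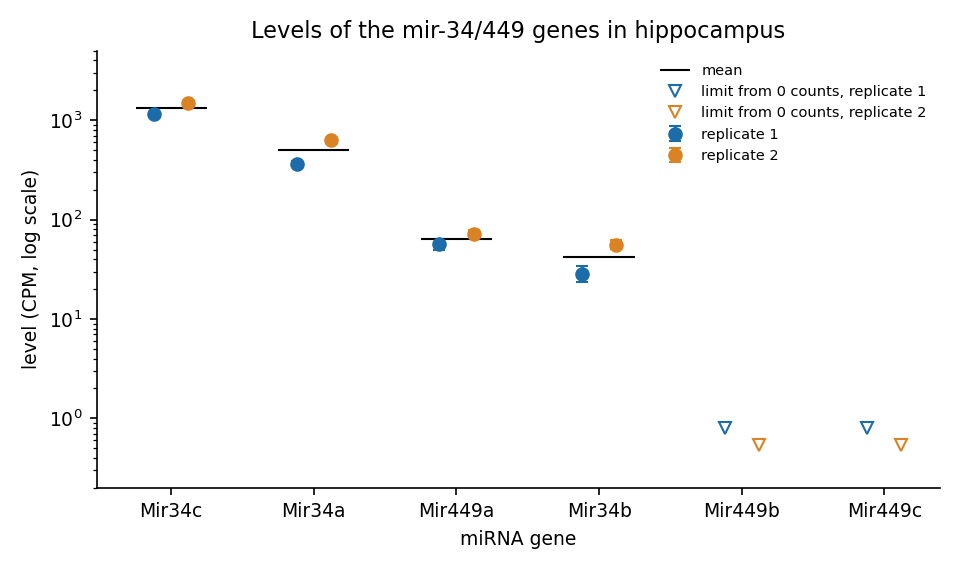
Level of each family gene in CPM on a log axis, with replicate 1 in blue, replicate 2 in orange, 95% Wilson intervals as bars and the mean as a black line; open triangles are the limits that 0 counts allow. Mir34c (1165 and 1491 CPM) and Mir34a (365 and 639 CPM) stand above Mir449a (56.4 and 71.4 CPM) and Mir34b (28.2 and 55.9 CPM), and the Mir449b and Mir449c limits are under 1 CPM.

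The order of levels was Mir34c, Mir34a, Mir449a and Mir34b in each library. The values of Mir34c and Mir34a did not overlap, nor did those of Mir34a and Mir449a. Mir449a was above Mir34b within each library, by ratios given below. Across the libraries the lowest Mir449a value, 56.4 CPM in replicate 1, and the highest Mir34b value, 55.9 CPM in replicate 2, nearly met. The difference of their means was smaller than their SDs added together. A mature microRNA is read in 1 piece, so CPM were not divided by length in these comparisons. Per 100 nt of hairpin the order was the same, with Mir34c at 1512 and 1936 CPM, Mir34a at 357 and 626 CPM, Mir449a at 62.0 and 78.5 CPM, and Mir34b at 33.6 and 66.6 CPM, each for replicates 1 and 2.

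Ratios between members within 1 library need no scaling between libraries. Mir34c and Mir34b are neighbours on the same strand, yet Mir34c had 41.3 times the counts of Mir34b in replicate 1 (exact 95% Clopper-Pearson interval 34.1 to 50.6) and 26.7 times in replicate 2 (23.8 to 30.0). The excess was large in both libraries, and its size differed between them by more than counting error. Mir34c exceeded Mir34a 3.19-fold in replicate 1 (interval 3.01 to 3.40) and 2.33-fold in replicate 2 (2.24 to 2.43). Mir34a exceeded Mir449a 6.46-fold in replicate 1 (5.59 to 7.50) and 8.94-fold in replicate 2 (8.06 to 9.94). Mir449a exceeded Mir34b 2.00-fold in replicate 1 (1.58 to 2.55) and 1.28-fold in replicate 2 (1.10 to 1.49).

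Within the family, Mir34c held 72.2% of the counts in replicate 1 (Wilson interval 71.0 to 73.3%) and 66.1% in replicate 2 (65.2 to 66.9%), or 69.1% ± 4.32. Mir34a held 22.6% (21.6 to 23.7%) and 28.3% (27.5 to 29.1%), and Mir34b 1.75% (1.45 to 2.11%) and 2.48% (2.22 to 2.76%). For these 3 genes the intervals of the libraries did not overlap. Mir449a held 3.50% (3.06 to 3.99%) in replicate 1 and 3.17% (2.87 to 3.48%) in replicate 2, with overlapping intervals. By locus, the chromosome 9 pair held 73.9% and 68.5% of the family's counts in replicates 1 and 2, the chromosome 4 gene the shares given for Mir34a and the chromosome 13 cluster those given for Mir449a.

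**Figure D3:**
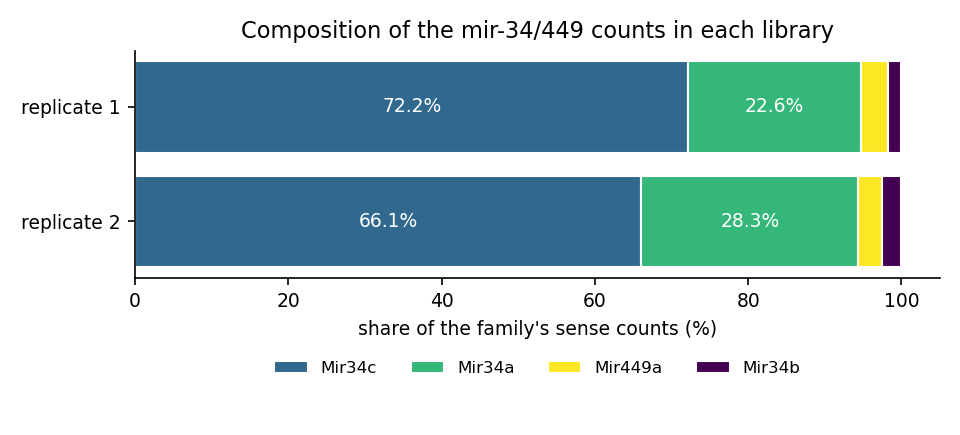
Share of the family's sense counts (x axis, %) held by each detected gene in replicate 1 (above) and replicate 2 (below). Mir34c takes 72.2% and 66.1%, Mir34a 22.6% and 28.3%, and the small segments at the right are Mir449a and Mir34b; Mir449b and Mir449c had no counts.

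The members differed in how far the libraries diverged. Counts of replicate 1 were set against those of replicate 2 for all 384 detected genes, on the TMM scale (trimmed mean of M-values, a scaling that centres the bulk of genes), with an exact binomial test and Benjamini-Hochberg adjustment at 0.05. Mir34a and Mir34b were called, both lower in replicate 1, so 2 of 4 detected members were called. In the background, 65.1% of detected genes were called, 34.1% in favour of replicate 1 and 31.0% in favour of replicate 2. The members' share is thus not above the background, and the test compares 2 libraries rather than conditions. It allows for counting error alone, so its p-values take no account of the wider spread between the libraries.

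Mir34a had a log2 ratio of -0.49 (replicate 1 over replicate 2, exact 95% interval -0.58 to -0.40), with an adjusted p of 1.64e-27 in the exact binomial test. Mir34b had a log2 ratio of -0.67 (-1.002 to -0.35), with an adjusted p of 5.09e-05 in the same exact test. The direction was the same in CPM for both. Larger absolute ratios were found in 44.0% of detected genes for Mir34a and in 29.7% for Mir34b, and the median detected gene differed 1.36-fold in either direction.

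Mir34c and Mir449a were close to even on the TMM scale. Mir34c had a log2 ratio of -0.04 (-0.09 to 0.01; adjusted p = 0.189, exact binomial test), and 93.5% of detected genes had a larger absolute ratio. Mir449a had a log2 ratio of -0.02 (-0.27 to 0.22; adjusted p = 0.905, exact binomial test), and its interval leaves room for a difference of up to 0.27 on the log2 scale at this depth. In plain CPM both were lower in replicate 1, with log2 ratios of -0.36 and -0.34, and both were called with total-count scaling. The median of all detected genes stood at -0.31 in CPM and 0.01 on the TMM scale, so the CPM ratios of Mir34c and Mir449a were close to that of the median gene, while Mir34a (-0.81 in CPM) and Mir34b (-0.99 in CPM) lay below it. The ratios of the neighbouring hairpins Mir34b and Mir34c thus differed by more than counting error, with intervals that do not overlap. These intervals leave out the wider spread between the libraries, a common coefficient of variation of 34.4% (edgeR). Whether the ratios of Mir34b and Mir34c differ beyond that spread was not tested.

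**Figure D4:**
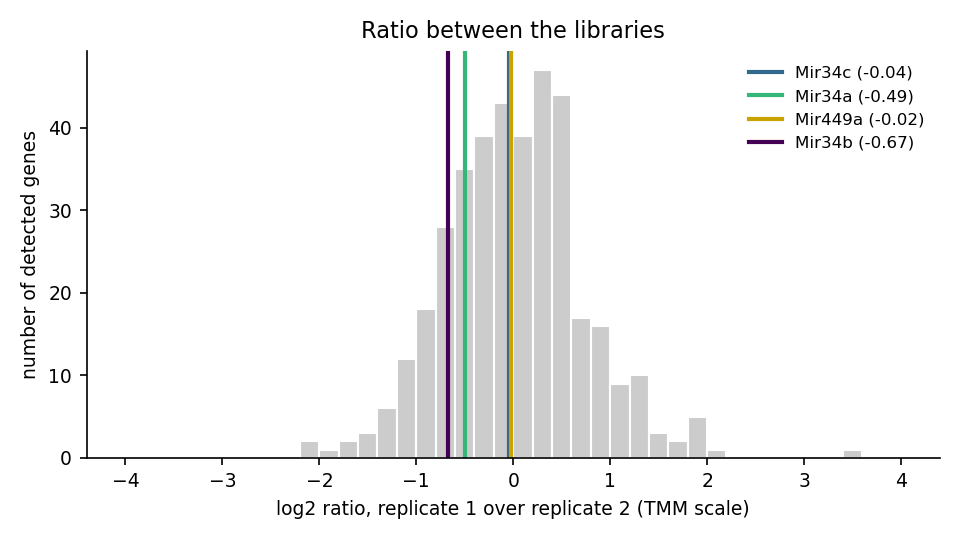
Number of detected genes (y axis) by log2 ratio of replicate 1 over replicate 2 on the TMM scale (x axis); vertical lines mark the detected family genes. Mir34c (-0.04) and Mir449a (-0.02) stand at the centre of the distribution, and Mir34a (-0.49) and Mir34b (-0.67) to its left.

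MicroRNAs of other cells and pathways that the family is often named with were looked up in lists, and their levels and calls stand beside those of the family. The choroid plexus list holds microRNAs of the secretory epithelium of the ventricles, mostly from introns of Htr2c and Trpm3. Of its 7 annotated members 5 were detected, with a summed level of 879 CPM (replicate 1) and 1570.2 CPM (replicate 2), with a median gene of 19.7 CPM beside 52.99 CPM in the mir-34/mir-449 family and 0 CPM over all miRNA genes. All 5 detected members were called lower in replicate 1 (31.0% of all detected genes were), with a median log2 ratio of -1.12 beside -0.27 for the 4 detected mir-34/mir-449 genes and 0.01 for all detected genes. The detected members other than Mir204 all lie on chromosome X and may share the host gene Htr2c, so their calls may not be independent. Mir204, the leading member, had 759 and 1038 CPM and a log2 ratio of -0.13. Mir1298, from an Htr2c intron, had 80.9 and 428 CPM and a log2 ratio of -2.09. Mir211 had 3 and 4 counts and Mir1912 had 0 and 5, so these markers were at or near 0.

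Mir34a and Mir34b were called in the same direction as all detected members of the choroid plexus list, and so were the liver marker Mir122 (log2 ratio -0.67) and the muscle marker Mir206 (-0.29). Among the oligodendrocyte markers 1 was called in each direction. The endothelial and mural markers were called higher in replicate 1 in 3 of 3 cases, beside 34.1% of all detected genes. Their summed levels were 22045 and 16510.2 CPM in replicates 1 and 2. Mir143 and Mir145a among them lie on the same chromosome, so their calls may not be independent. Of the 10 detected neuron markers 7 were called higher and 3 lower in replicate 1. They include copies of Mir9, Mir128, Mir138 and Mir218, so their calls may not be independent. Of the 5 microglia and leukocyte markers 3 were called, all higher, with sums of 1521 and 1425 CPM. The part that differences in cell makeup may have in the Mir34a and Mir34b ratios was not tested. The epithelial mir-200 list, which marks other epithelium, had 5 of 5 members detected at 123 and 206 CPM in sum, of which 2 were called, both lower in replicate 1, beside 65.1% of all detected genes called and 31.0% called lower.

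**Figure D5:**
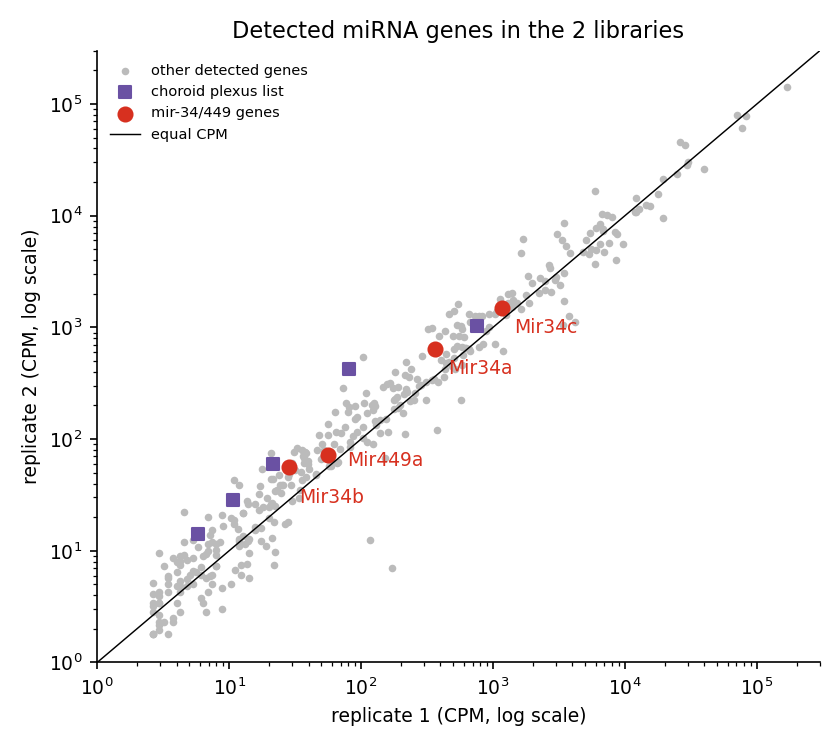
Level of each detected gene in replicate 1 (x axis) and replicate 2 (y axis), both in CPM on log axes, with the line of equal CPM. The mir-34/mir-449 genes (red) lie above the line, Mir34c and Mir449a close to it, among the other detected genes (grey), and Mir1298 of the choroid plexus list (purple squares; 80.9 and 428 CPM) lies farthest from the line in that list.

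Other microRNAs described as p53 responsive did not share 1 direction. Of 9 listed genes 7 were detected and 6 called, 3 higher and 3 lower in replicate 1, beside 65.1% of all detected genes called. Mir143 and Mir145a, which are also mural cell genes, were higher in replicate 1 with log2 ratios of 1.11 and 1.68, as was Mir107 with 0.51. Mir15a, Mir194-2 and Mir192 were lower, with log2 ratios of -1.19, -1.65 and -0.73. Mir16-1, at -0.03, was not called. Mir34a, at -0.49, was called lower in replicate 1, like Mir15a, Mir194-2 and Mir192 but by less. Its mean of 502 CPM stood above the list's median gene of 205 CPM.

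The genes listed for the aged or inflamed brain were all detected (6 of 6), with sums of 8736 and 12148 CPM in replicates 1 and 2 and a median gene of 637 CPM by mean level, beside a mean of 502 ± 194 CPM for Mir34a. Of them 5 were called, beside 65.1% of all detected genes: 4 were higher in replicate 1 (34.1% of all were), led by Mir21a at a log2 ratio of 1.32, and 1 was lower, Mir22, at -1.01. Mir125b-1 and Mir125b-2, both among the 4, are copies, so their calls may not be independent and reads they share enter no gene. Mir146, also among the 4, is a microglia and leukocyte marker above as well. Mir34a shared its direction with Mir22 alone among the 5 called genes. With 1 age in the study these values are levels and differences between libraries, not changes with age.

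The detected genes nearest to each member in level were found by the distance between log2(CPM + 1) values over the 2 libraries, a description of level only. Nearest to Mir34c was Mir874 (1129 and 1591 CPM), followed by Mir337 and Mirlet7c-2. Nearest to Mir34a was Mir346 (367 and 594 CPM), followed by Mir300 and Mirlet7c-1. Nearest to Mir449a was Mir183 of the sensory cluster (57.2 and 70.7 CPM), followed by Mir669o and the epithelial Mir429. Mir7044 (29.8 and 60.7 CPM), Mir345 and Mir25 were nearest to Mir34b. Mirlet7c-1 and Mirlet7c-2 are copies, and reads shared by copies enter no gene. Their levels here may therefore lie below that of their mature RNA.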

How the data were processed

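MicroRNA sequencing of total RNA (size range under 30 per the labels) was available for 2 libraries of 1 group. The authors deposited raw counts per miRNA gene, 1 unstranded and 2 stranded columns, made on mm10 with GENCODE M21 per the text deposited with the tables. Which aligner and which counter were used is not given in the sources used here. The third column, which holds most counts, was taken as sense. Of 10594081 and 16131923 reads in replicates 1 and 2, 51.5% and 46.7% mapped to several places and entered no gene. Such summary lines stayed out of CPM (counts per 1000000 sense counts) and tests.

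GENCODE M21 gave symbols and coordinates, and all gene identifiers matched. Scaling used TMM (edgeR 4.0.16) or, as an alternative, DESeq2 1.42.0 size factors. The common coefficient of variation was 34.4% (edgeR). With 1 library a side, the exact two-sided binomial test (SciPy 1.17.1) replaced a replicated model. Since the labels give separate biological replicate numbers, n is 2. A chi-square of 243102 on 383 degrees of freedom between the tables exceeded counting noise, so they are not duplicates of 1 table; it does not show separate animals. Mir1911 matched no symbol.

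The members and gene lists were chosen with earlier results of these data known. Named genes are the 6 members, the 3 nearest in level to each detected member, and the leading members of each list; Mir211, Mir1912, Mir194-2, Mir192, Mir22 and Mir21a were named to account for their list's calls or zeros. Alternatives were unstranded counts, pseudocounts of 0.1 and 10 (main value 1), no filter, other detection limits, other scalings, a chi-square test, all reads as the denominator, and each replicate left out.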

Additional observations from a re-analysis of the deposited data

Results flagged for a closer look

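The opposite-strand column, which enters no comparison above, held 7 counts for Mir34b in replicate 1 and 7 in replicate 2, above the 3 counts that a 0 allows. These equal 6.60% of its sense counts in replicate 1 (Wilson 95% interval 3.24 to 13.01%) and 2.24% in replicate 2 (1.09 to 4.54%). The intervals take the sense count as the total, although opposite-strand counts are not part of it, so they are approximate. Among 2138 miRNA genes with no annotated miRNA gene on the other strand, 46 had any such count and Mir34b was the fifth highest in the sum of both libraries. Mir34b and 3 other genes of the 358 detected without such a partner reached those shares in both libraries. The other 5 members had 0 opposite-strand counts, including Mir34c in the same Btg4 intron.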

How the results depend on the processing

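Of the 4 detected members' ratios, none changed sign under unstranded counts, DESeq2 size factors or total counts. Using no filter or a chi-square test leaves the ratios as they are, so these 2 settings bear on the calls alone. With total counts as the scale, 4 members were called in place of 2, as Mir34c (log2 ratio -0.36, adjusted p = 2.66e-40, exact binomial test) and Mir449a (-0.34, adjusted p = 0.00896, same exact test) passed. That scale also called 271 of 384 genes, 72.0% of them higher in replicate 2, against 47.6% of the 250 calls with TMM. Over the alternatives, 2 to 4 members were called. Per 1000000 of all reads, multimapped ones included, the family summed to 678, a change that follows from the larger denominator. Leaving out 1 library in turn, the family sum lay between 1614 and 2257 CPM and the Mir34c share between 66.1% and 72.2%, and 4 members were detected either way. At minimum counts of 1, 5 or 50 the number detected was also 4. The 12 nearest genes were the same under both other pseudocounts and over every gene with a count. No test between libraries could be run with 1 of them left out. No paired analysis was possible because there is 1 group. Depth leaves only an upper limit for Mir449b and Mir449c, which had 0 counts.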
